A study of Mus musculus with 144 samples.

Results

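The mRNAs of 10 proteins that hepatocytes secrete into the blood were followed for 120 h in primary mouse hepatocytes. The genes were Alb, Ttr, Trf, Ahsg, Apoh, Fga, Fgb, Fgg, Gc and Rbp4, chosen by symbol and not by their values, 10 of the 55359 genes in the count tables. The files name them by Ensembl identifier: ENSMUSG00000029368 for Alb, ENSMUSG00000061808 for Ttr, ENSMUSG00000032554 for Trf, ENSMUSG00000022868 for Ahsg, ENSMUSG00000000049 for Apoh, ENSMUSG00000028001 for Fga, ENSMUSG00000033831 for Fgb, ENSMUSG00000033860 for Fgg, ENSMUSG00000035540 for Gc and ENSMUSG00000024990 for Rbp4. All 10 were detected in every library and entered every fit. The cells came from male mice whose labelled age was 28 days and were plated on collagen in Williams E medium with serum and dexamethasone. After attachment the medium was replaced by one with dexamethasone for which no serum was listed. With it the cells received dimethyl sulfoxide (vehicle) or 10 nM TCDD (2,3,7,8-tetrachlorodibenzo-p-dioxin, a ligand of the aryl hydrocarbon receptor) for 1 of 9 periods between 2 and 120 h. The genotype labels were wild-type (C57BL/6NCrl, written WT here) and DRE-null (strain Pkm-delta-DRE, written PkmΔDRE here), the latter homozygous for a CRISPR deletion of an intronic dioxin response element of Pkm, the pyruvate kinase gene. Each of the 36 combinations of label, treatment and hour had 4 libraries. The labels did not say whether the 4 libraries of a group came from separate mice or cultures, so p-values measured only the spread between these libraries, which may be technical.

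Plasma proteins are made in the liver with a signal peptide, enter the endoplasmic reticulum and leave the hepatocyte by constitutive secretion. Their genes are driven by liver-enriched transcription factors such as HNF1 alpha, HNF4 alpha and the C/EBP family. Albumin (Alb) is the main protein of plasma and sets its oncotic pressure. Transthyretin (Ttr) carries thyroxine and also binds the retinol-binding protein RBP4, transferrin (Trf) carries iron, and the vitamin D-binding protein (Gc) carries vitamin D metabolites. Fetuin-A (Ahsg) inhibits calcification, and beta-2-glycoprotein I (Apoh) binds anionic phospholipids. The alpha, beta and gamma chains of fibrinogen (Fga, Fgb and Fgg) assemble into a single clotting protein, lie side by side in the genome, and are induced by interleukin-6 and glucocorticoid in the acute-phase response, in which Alb, Ttr, Trf and Ahsg mRNA fall. Hepatocytes kept as a monolayer are known to lose much of their liver-specific expression over days.

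The promoters of 4 members are shown because a binding motif of HNF1, an interleukin-6 response motif or both stood there, and because 3 of them, Alb, Fgg and Gc, mark the range of the changes over time. Each is the 250 bases before the start site on the gene's strand, from RefSeq with the coordinates of build GRCm38.p6, and capitals mark motif matches. Alb lies at chr5:90460620-90460869 on the plus strand, Gc at chr5:89457899-89458148 on the minus strand, Fgb at chr3:83049864-83050113 on the minus strand and Fgg at chr3:83007474-83007723 on the plus strand.
Alb: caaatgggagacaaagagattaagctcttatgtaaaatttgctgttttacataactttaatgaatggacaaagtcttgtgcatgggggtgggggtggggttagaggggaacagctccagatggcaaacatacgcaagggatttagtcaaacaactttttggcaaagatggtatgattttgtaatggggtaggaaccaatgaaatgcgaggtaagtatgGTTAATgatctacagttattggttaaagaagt
Gc: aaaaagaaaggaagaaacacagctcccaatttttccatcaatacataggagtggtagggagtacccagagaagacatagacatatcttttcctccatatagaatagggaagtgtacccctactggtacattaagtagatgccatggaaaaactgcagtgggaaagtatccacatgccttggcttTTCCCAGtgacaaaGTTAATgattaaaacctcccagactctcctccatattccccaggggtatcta
Fgb: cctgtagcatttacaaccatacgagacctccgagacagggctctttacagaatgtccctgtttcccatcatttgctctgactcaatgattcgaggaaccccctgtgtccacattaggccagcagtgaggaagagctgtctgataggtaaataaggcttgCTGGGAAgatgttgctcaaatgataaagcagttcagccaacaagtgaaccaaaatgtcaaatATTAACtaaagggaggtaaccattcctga
Fgg: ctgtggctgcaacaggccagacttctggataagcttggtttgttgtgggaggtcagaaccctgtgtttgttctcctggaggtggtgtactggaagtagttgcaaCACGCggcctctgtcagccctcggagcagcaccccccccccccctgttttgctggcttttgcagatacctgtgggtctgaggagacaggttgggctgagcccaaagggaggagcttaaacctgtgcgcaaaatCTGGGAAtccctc
The search covered both strands for the HNF1 half-site GTTAAT, held by 6.43% of 32851 promoters of the same length, for the interleukin-6 response motif CTGGGAA, held by 9.10%, and for the core of the dioxin response element, GCGTG, held by 28.2%. The first base of the HNF1 half-site lay 32 bases before the start of Alb, 52 before Gc, 29 before Fgb and 43 before Fga. The interleukin-6 response motif lay 91 bases before Fgb, 13 before Fgg and 66 before Gc. The core of the dioxin response element lay 146 bases before Fgg, 39 before Ahsg and 157 before 1 of 2 starts of Rbp4, and no motif matched before Apoh. Windows of 8 of the 10 members were searched, and none of Ttr or Trf was. These matches describe the letters of the windows only. In the same build the 3 fibrinogen genes lie together on chromosome 3, Fgg at 83007724-83015049 and Fga at 83026076-83033627 on the plus strand and Fgb at 83040141-83049863 on the minus strand. Gc at 89417522-89457898 (minus strand) and Alb at 90460897-90476602 (plus strand) share chromosome 5.

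The libraries held 13588848 to 30719161 counts on genes (median 18011825). From 8 to 48 h the targeted gene moved with TCDD against the genotype labels, though no change at those hours was called, so "labelled" is kept throughout. At 8 h Pkm was at 41.2 to 90.02 CPM in vehicle and 116.1 to 172.4 CPM with TCDD in the cultures labelled PkmΔDRE. In those labelled WT it was at 45.5 to 89.5 and 28.7 to 60.4 CPM. CPM are counts scaled to library size and composition by TMM, so not a share of counts. The log2 change of Pkm at 8 h was 1.24 ± 0.23 (SE, edgeR adjusted p = 0.128) labelled PkmΔDRE and -0.49 ± 0.25 (SE, edgeR adjusted p = 0.123) labelled WT. At 12, 24 and 48 h it was 1.68 ± 0.26, 1.34 ± 0.39 and 0.97 ± 0.28 (SE) labelled PkmΔDRE. Labelled WT it was 0.17 ± 0.38, 0.01 ± 0.56 and -0.03 ± 0.62 (SE) at those hours. At 96 h Pkm was called lower labelled WT, at -0.73 ± 0.14 (SE, edgeR adjusted p = 0.00376), against 0.34 ± 0.51 (SE) labelled PkmΔDRE. At 2, 4, 72 and 120 h no change of Pkm was called. Gene-level counts do not separate the Pkm1 and Pkm2 splice forms. Cyp1a1, the standard response gene of TCDD, was at 3253 CPM in vehicle replicate 1 at 48 h and 1641 CPM in vehicle replicate 3 at 96 h, both labelled WT, and at 27.6 CPM in TCDD replicate 4 at 72 h labelled WT, each against its label. In TCDD replicate 4 at 2 h labelled WT it was at 1.36 CPM, inside the vehicle range of 0.916 to 5.83 CPM and below the 6.25 to 28.6 CPM of its 3 companions, and that library correlated best with a vehicle group (r = 0.961, own group r = 0.843). TCDD replicate 4 at 4 h labelled WT held Cyp1a1 at 11.2 CPM, where its companions were at 121.5 to 314.5 CPM. It correlated best with the WT vehicle group of 4 h (r = 0.968, own group r = 0.890). A pair of vehicle libraries labelled PkmΔDRE stood apart in time: over 8175 genes, replicate 4 of 4 h correlated best with the WT vehicle group of 96 h (r = 0.980, own group r = 0.587) and replicate 4 of 96 h best with the PkmΔDRE TCDD group of 4 h (r = 0.982, own group r = 0.565). Of the other libraries, 23 were nearest to a group of an adjacent time point, 1 to a group 2 time points away, and the rest to a group of their own time point. Tests of the members that rest on the first 3 of these libraries or on the pair are given with and without them. Counts from lists of other genes and correlations are given with all libraries only. At 2 h no member was called with TCDD labelled WT with or without replicate 4. At 4 h no member was called with TCDD labelled WT with all libraries. All 10 further hepatocyte marker genes, none of them a member, were detected in every group. Fewer cells of a type and less RNA per cell cannot be told apart in these bulk samples.

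Albumin mRNA dominated at the start. In WT-labelled vehicle cultures at 2 h, Alb was at 101795, 122481, 138754 and 133199 CPM in the 4 libraries, and it took 7.57 ± 1.21% (SD, n = 4) of all counts on genes, while the 10 members together took 13.2 ± 0.989%. In the PkmΔDRE-labelled vehicle cultures Alb was at 192448, 127957, 184204 and 176461 CPM, 9.49 ± 0.480% of counts, and the members took 15.9 ± 0.854%. Replicate 2 of that group was the lowest of its 4 and overlapped the WT-labelled range, and the difference between the labels was not called (log2 fold change 0.38 ± 0.18 SE, edgeR adjusted p = 0.663). Divided by exon length, which allows comparison between genes, Alb was at 52971 ± 6962 CPM per kilobase (SD, n = 4) and Trf, second in order, at 9999.9 ± 1769. Ttr followed at 7847 ± 1489.6 CPM per kilobase, Gc at 4669.8 ± 310.2, Fga at 4061 ± 579.7 and Ahsg at 3492 ± 713. Rbp4 stood at 3032 ± 274 CPM per kilobase, Fgb at 2735 ± 338, Fgg at 2621 ± 267 and Apoh, the lowest, at 1649 ± 206. Only 3 neighbours in this order were further apart than their SDs reach, Alb over Trf, Ttr over Gc, and Fgg over Apoh. With the longest transcript as the length, 5 of the 10 kept their place.

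All 10 mRNAs fell with time in culture without TCDD. A change was called when its adjusted p was under 0.05 and the level moved at least 1.5-fold. Between 2 and 120 h all 10 members were called lower under each label, against 24.5% of all genes tested labelled WT and 22.7% labelled PkmΔDRE. No member's ranges overlapped, and the share of all genes without overlap was not computed. The median log2 change of the members was -3.43 labelled WT and -3.60 labelled PkmΔDRE, while the median over all genes tested was 0.21 and 0.24. Most of the fall was present by 24 h, when again all 10 were called lower under both labels (background 20% and 15.2%). Between 24 and 120 h, 6 members fell further labelled WT (background 18.6%) and 3 labelled PkmΔDRE (14%). Without the pair of libraries that stood apart in time 5 were called labelled PkmΔDRE, with a background not given here.

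**Figure D1:**
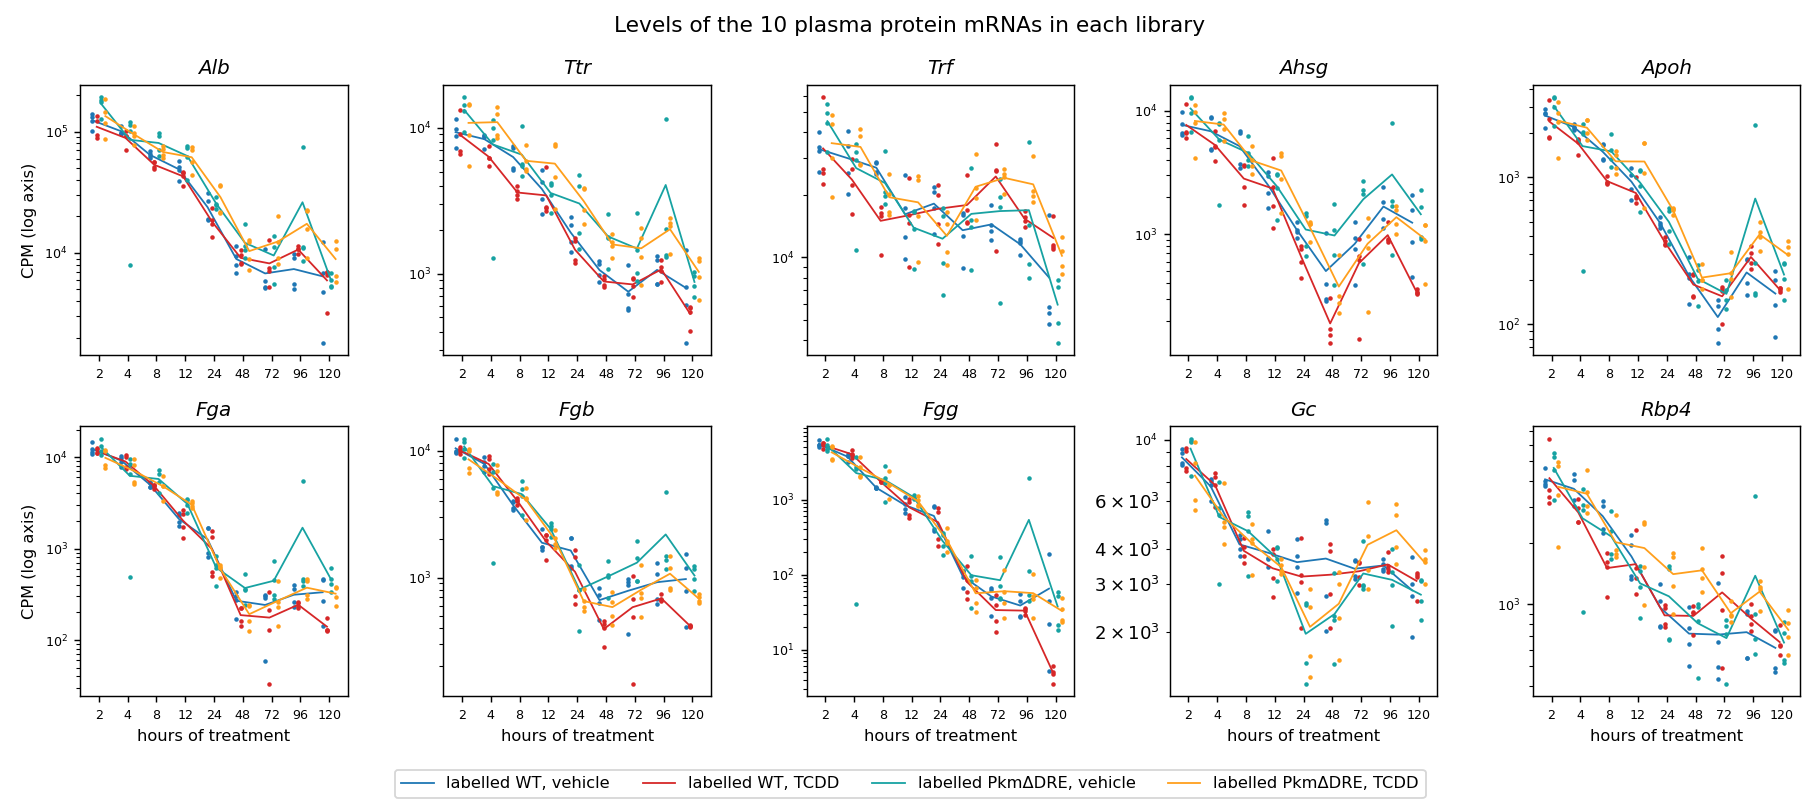
Levels of the 10 mRNAs in CPM on a log axis against hours of treatment, with a point for each library and lines through the group means, coloured by label and treatment. In vehicle all 10 decline from 2 h, Gc least and Fgg most. The single high point at 96 h and the low point at 4 h in vehicle labelled PkmΔDRE are the libraries that stood apart in time.

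Alb in WT-labelled vehicle libraries was at 19015, 18840.2, 31001 and 26682 CPM at 24 h and at 4812, 12230.5, 1823 and 6805 CPM at 120 h. All libraries at 120 h were far below the lowest at 2 h, and they spread over a wider relative range than at 2 or 24 h. The log2 fold change from 2 to 120 h was -4.22 ± 0.36 (SE, edgeR adjusted p = 1.08e-11), an 18.7-fold fall, and the share of Alb in the counts went to 0.916 ± 0.552%. Labelled PkmΔDRE, Alb was at 5223, 6858, 5349 and 6024 CPM at 120 h and had fallen 29.1-fold (log2 -4.86 ± 0.65 SE, edgeR adjusted p = 2.04e-06). The 10 members together came down to 3.07 ± 1.40% of counts labelled WT and 2.74 ± 0.229% labelled PkmΔDRE.

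Gc, the vitamin D carrier, fell least under both labels, and Trf, the iron carrier, came next labelled WT. Gc went from 8071, 9261, 8929.5 and 8202 CPM at 2 h to 2985, 3746, 1914 and 2697 CPM at 120 h labelled WT. The groups did not overlap, and the log2 fold change was -1.55 ± 0.22 (SE, edgeR adjusted p = 2.92e-07) against -1.76 ± 0.29 (SE, edgeR adjusted p = 2.25e-05) labelled PkmΔDRE. By 8 h Gc was already at 4164 ± 326 CPM (SD, n = 4) labelled WT, and from 8 to 96 h its group means lay between 3398 and 4164 CPM, and a fall from 24 to 120 h was not called (-0.30 ± 0.21 SE, edgeR adjusted p = 0.271). Trf went from 34130.2, 40184, 25886 and 32598 CPM to 5433, 15990.1, 5795 and 4811 CPM labelled WT, with replicate 2 at 120 h well above the other three. Its log2 fold change was -2.01 ± 0.31 (SE, edgeR adjusted p = 1.49e-06) labelled WT and -2.94 ± 0.49 (SE, edgeR adjusted p = 2.35e-05) labelled PkmΔDRE. The Trf fall by 24 h labelled WT, -0.87 ± 0.30 (SE, edgeR adjusted p = 0.0171), was no longer called without vehicle replicate 3 of 24 h, at -0.73 (edgeR adjusted p = 0.0670), or without replicate 2 of 2 h, at -0.75 (edgeR adjusted p = 0.0566).

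Transthyretin and the retinol-binding protein, which travel together in plasma, both fell. Ttr went from 7258, 9727, 8769 and 11474 CPM at 2 h to 606, 1444, 336 and 804 CPM at 120 h labelled WT, a log2 fold change of -3.50 ± 0.31 (SE, edgeR adjusted p = 2.77e-11). Rbp4 went from 4005, 4610.0, 3882 and 3794 to 469, 739, 490.2 and 753 CPM, -2.68 ± 0.28 (SE, edgeR adjusted p = 6.60e-10). Neither pair of groups overlapped. Labelled PkmΔDRE the values were -3.92 ± 0.63 (SE, edgeR adjusted p = 1.47e-05) for Ttr and -2.84 ± 0.47 (SE, edgeR adjusted p = 2.08e-05) for Rbp4.

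Fetuin-A and beta-2-glycoprotein I had their lowest WT-labelled vehicle means in mid-course, at 48 and 72 h. Ahsg labelled WT in vehicle went from 7793, 9840.1, 6413 and 6645 CPM at 2 h to 289, 1029, 296 and 399 CPM at 48 h and then to 1337, 1132, 1816 and 2417 CPM at 96 h. Every library at 96 h was above every library at 48 h. Replicate 1 of 48 h, at 289 CPM, and replicate 3 of 96 h, at 1816 CPM, had Cyp1a1 against their labels, and the order held without them. No contrast between 48 and 96 h was tested. Over the whole course Ahsg changed by -2.58 ± 0.43 (SE, edgeR adjusted p = 4.70e-06) on the log2 scale labelled WT and -2.85 ± 0.60 (SE, edgeR adjusted p = 0.000290) labelled PkmΔDRE. Apoh had its lowest WT-labelled mean in vehicle at 72 h, 112.1 ± 33.8 CPM, and was at 225 ± 59.6 CPM at 96 h (SD, n = 4). Its change from 2 to 120 h was -3.96 ± 0.27 (SE, edgeR adjusted p = 4.19e-14) labelled WT and -3.81 ± 0.64 (SE, edgeR adjusted p = 2.39e-05) labelled PkmΔDRE.

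The fibrinogen chains had the largest log2 falls at 8 h labelled WT and fell unequally after it. Between 2 and 8 h, 6 of 10 members were called lower labelled WT, the 3 chains with Alb, Apoh and Gc, against 16% of all genes tested. Fgg changed by -1.95 ± 0.51 (SE, edgeR adjusted p = 0.00337), Fgb by -1.50 ± 0.31 (SE, edgeR adjusted p = 0.000271) and Fga by -1.31 ± 0.36 (SE, edgeR adjusted p = 0.00431) on the log2 scale. Labelled PkmΔDRE, 2 of 10 were called at 8 h, Fgb at -1.27 ± 0.43 (SE, edgeR adjusted p = 0.0495) and Gc at -1.02 ± 0.29 (SE, edgeR adjusted p = 0.0181), against 5.5%. The libraries of 4 and 96 h that stood apart entered the spread of that fit. Without both of them 8 of 10 were called, and in a fit of the 2 and 8 h libraries alone all 10 were. The 5.5% belongs to the fit of all libraries, and the share of all genes called in those alternative fits is not given here. The Fgb call at 8 h labelled PkmΔDRE was lost in 14 of 16 fits that each left out 1 library (log2 -1.38 to -1.11, edgeR adjusted p up to 0.143), and the Gc call in 5 of 16 (log2 -1.10 to -0.86, edgeR adjusted p up to 0.0795).

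Fgg fell furthest of the 10. Its WT-labelled vehicle libraries were at 5392, 6274, 5323 and 4956 CPM at 2 h, 1412, 1432, 1424 and 1478 CPM at 8 h, 828, 802, 410.1 and 385 CPM at 24 h and 21.97, 188.8, 5.18 and 45.2 CPM at 120 h. The 4 groups did not overlap, and the 120 h libraries spread over more than a factor of 10. From 2 to 120 h the log2 fold change was -6.36 ± 0.63 (SE, edgeR adjusted p = 2.64e-10), an 81.99-fold fall. Without replicate 2 of 120 h, the highest of its group, it was -7.75 (edgeR adjusted p = 3.84e-13). Labelled PkmΔDRE the libraries were at 4725, 4412, 5353 and 6466 CPM at 2 h and 58.2, 52.2, 21.7 and 18.6 CPM at 120 h, a log2 change of -7.12 ± 1.10 (SE, edgeR adjusted p = 1.00e-05). Fga changed by -5.14 ± 0.42 (SE, edgeR adjusted p = 2.70e-12) and Fgb by -3.37 ± 0.33 (SE, edgeR adjusted p = 2.60e-10) labelled WT, and by -4.82 ± 0.73 (SE, edgeR adjusted p = 8.03e-06) and -3.38 ± 0.46 (SE, edgeR adjusted p = 2.45e-06) labelled PkmΔDRE. Between 24 and 120 h a fall of Fgb was not called, with 1632 ± 485 CPM at 24 h and 973 ± 484 CPM at 120 h labelled WT (SD, n = 4, log2 -0.71 ± 0.31 SE, edgeR adjusted p = 0.0648), while Fgg changed by a further -3.19 ± 0.54 (SE, edgeR adjusted p = 2.00e-05), or by -4.59 (edgeR adjusted p = 7.00e-09) without that replicate.

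**Figure D2:**
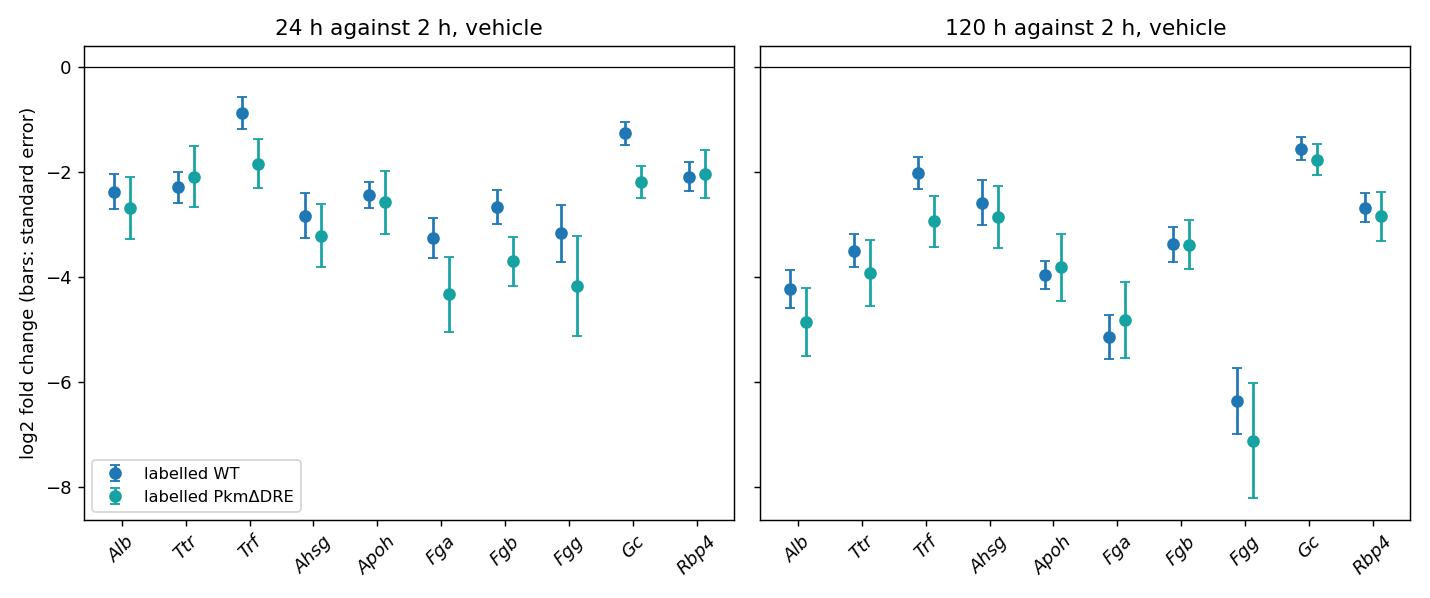
Log2 fold change of each member in vehicle cultures at 24 h (left) and 120 h (right) against 2 h, for cultures labelled WT and PkmΔDRE, with standard errors as bars. All points lie below 0. At 120 h Fgg is lowest at -6.36 and -7.12, and Gc is highest at -1.55 and -1.76.

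The unequal fall changed the proportions within the group. Per kilobase, the Fga to Fgb ratio in WT-labelled vehicle libraries was 1.48 ± 0.0591 at 2 h, 0.962 ± 0.0867 at 24 h and 0.440 ± 0.0438 at 120 h (SD, n = 4). The Fgg to Fgb ratio was 0.960 ± 0.0306, 0.660 ± 0.0778 and 0.0924 ± 0.0908 at the same hours. Labelled PkmΔDRE, the Fga to Fgb ratio was 1.51 ± 0.0913, 1.04 ± 0.194 and 0.553 ± 0.0502, and the Fgg to Fgb ratio 0.886 ± 0.0584, 0.684 ± 0.168 and 0.0633 ± 0.0249. The gamma chain was thus close to the beta chain at 2 h and below 0.1 of it at 120 h in the group means. Trf per kilobase was 0.193 of Alb at 2 h labelled WT, with libraries from 0.132 to 0.237, and 1.58 of it at 72 h, from 1.17 to 1.83. At 72 h Trf stood above Alb in 4 of 4 WT-labelled vehicle libraries and in 2 of 4 labelled PkmΔDRE. At 120 h it did so in 1 of 4 under each label.

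**Figure D3:**
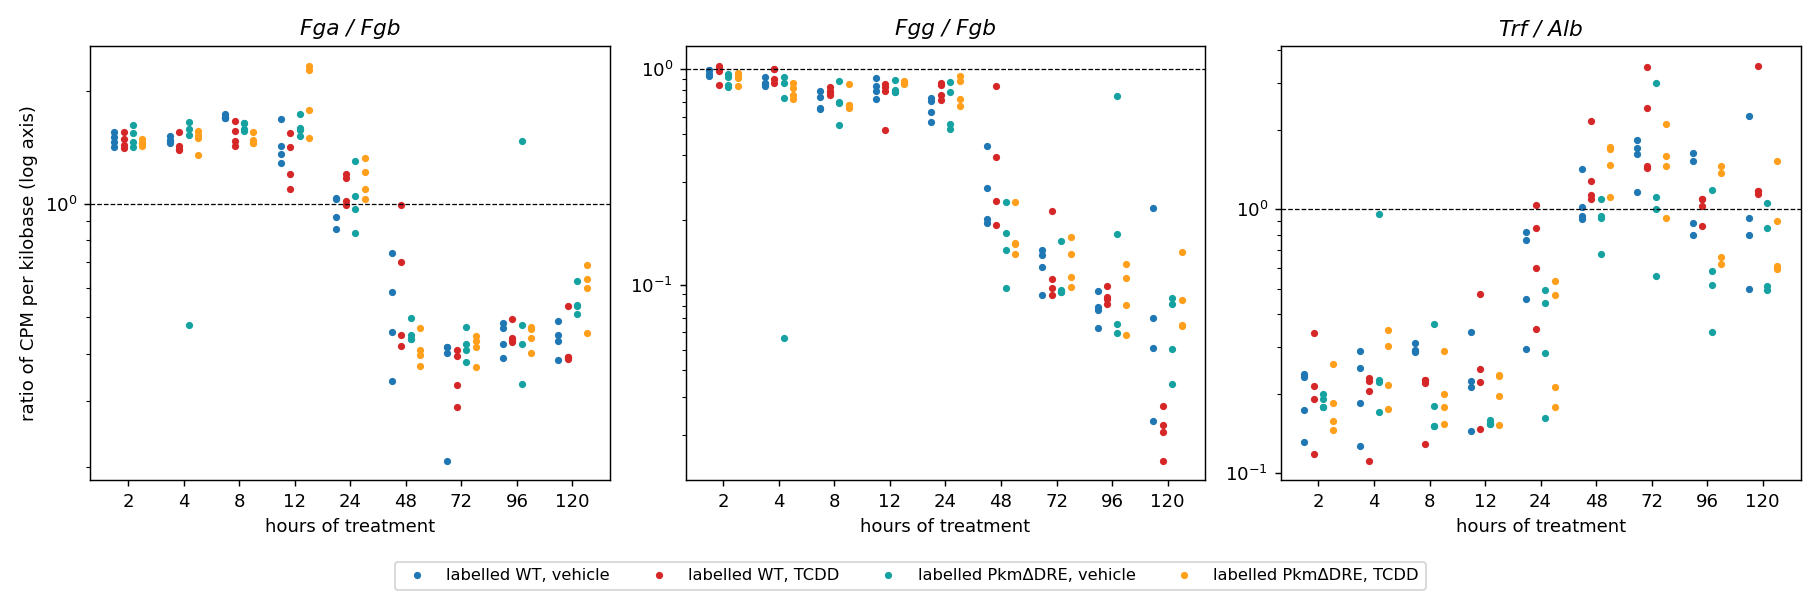
Ratios of CPM per kilobase on log axes against hours of treatment, Fga to Fgb (left), Fgg to Fgb (middle) and Trf to Alb (right), with a point for each library coloured by label and treatment and a dashed line at 1. Both fibrinogen ratios drop between 24 and 72 h, and the Trf to Alb ratio rises across 1. The single PkmΔDRE-labelled vehicle points off their groups at 4 and 96 h are the libraries that stood apart in time.

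Changes relative to Alb were tested with an exact permutation test of the log2 ratio of each member to Alb, 120 h against 2 h in vehicle, 4 libraries against 4 (two-sided, 18 tests, smallest possible p = 0.0286). In 16 of the 18 tests the groups did not overlap and p was at this minimum (adjusted p = 0.0321). Alb itself fell while the median over all genes tested did not, so a gain on Alb was not particular to the members. The share of all genes without overlap in this ratio was not computed. Relative to Alb, Gc gained 2.92 labelled WT and 3.09 labelled PkmΔDRE on the log2 scale, and Trf gained 2.34 and 1.89. Rbp4 gained 1.80 and 2.02, Ahsg 1.73 and 1.95, Fgb 0.99 and 1.47, and Ttr 0.85 and 0.95. The log2 ratio of Fgg to Alb changed by -2.88 and -2.43. The ratio of Fga to Alb changed by -0.77 labelled WT, while its change of 0.01 labelled PkmΔDRE did not pass (exact permutation p = 0.971). The ratio of Apoh to Alb changed by 1.02 labelled PkmΔDRE, and its change of 0.45 labelled WT did not pass (exact permutation p = 0.229). At 120 h labelled WT the order per kilobase was Alb at 2740.3 ± 1871, Trf at 2412 ± 1608, Gc at 1537 ± 410.5, Ttr at 672 ± 398 and Ahsg at 565 ± 329 CPM per kilobase. Rbp4 followed at 457 ± 114.8, Fgb at 255 ± 127.1, Fga at 110.6 ± 51.5, Apoh at 101.6 ± 41.9 and Fgg at 31.2 ± 40.1. Only Gc and Ttr in this order were neighbours further apart than their SDs reach.

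Marker genes of other cells moved over the same hours. In WT-labelled vehicle libraries the 10 further hepatocyte markers, summed, lay at 22748 to 32961 CPM at 2 h and at 229 to 2363 CPM at 120 h, and all 10 were called lower under both labels. The summed level was higher at 120 h for the 5 cholangiocyte markers, 62.1 to 145.8 CPM before and 538 to 978 CPM after, and for the 6 stellate cell or fibroblast markers, 6.26 to 14.96 CPM before and 24.1 to 184.9 CPM after. It was lower for the 7 Kupffer cell markers, 172.5 to 299 CPM before and 14.7 to 59.6 CPM after, for the 6 endothelial markers, 328 to 492 and 32.6 to 82.6 CPM, and for the 4 blood markers, 171.6 to 259.7 and 0.172 to 1.98 CPM. The reads changed as well: in WT-labelled vehicle libraries 3.74 to 4.43% of reads fell on no annotated gene at 2 h and 7.75 to 9.76% at 120 h, and 8.07 to 14.5% and 3.83 to 5.40% were unmapped. The part of these cells and of the read shares in the member values was not tested.

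TCDD changed few member levels at single hours. Over 9 time points, 6 of 90 member tests were called labelled WT, 1 higher and 5 lower, and 19 had an unadjusted p under 0.05. Labelled PkmΔDRE 0 of 90 were called by edgeR, with 11 at an unadjusted p under 0.05 and 0 by DESeq2. The share of all genes tested that was called labelled WT was 0% after 2, 4 and 72 h, 37.4% after 8 h, 0.0321% after 12 h, 0.373% after 24 h, 0.00763% after 48 h, 15.1% after 96 h and 1.46% after 120 h. Labelled PkmΔDRE it was 0% after 2 and 4 h, 0.106% after 8 h, 0.024% after 12 h, 0.016% after 24 h, 0.404% after 48 h, 1.13% after 72 h, 0.0793% after 96 h and 0.633% after 120 h. The WT-labelled calls stood at the 2 hours with the largest shares of all genes called, 4 at 8 h and 2 at 96 h.

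**Figure D4:**
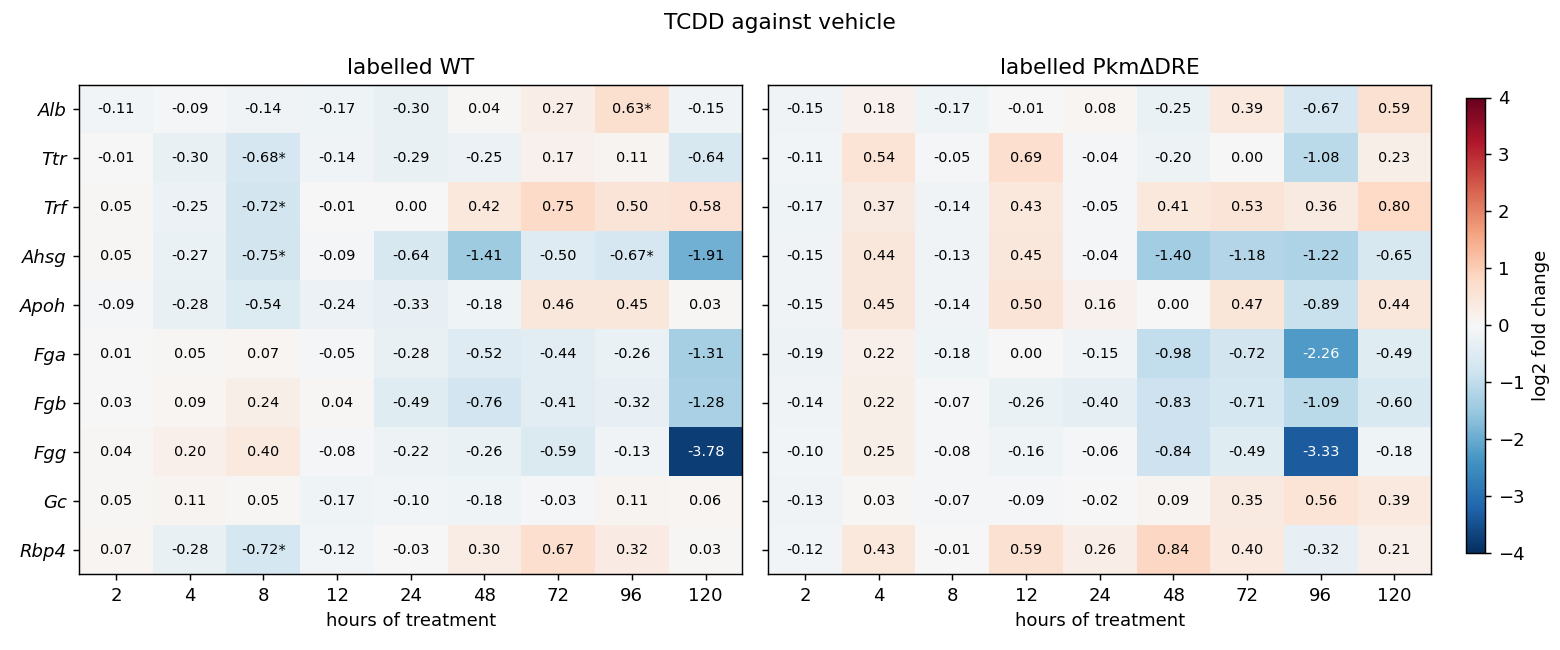
Log2 fold change of TCDD over vehicle for each member (rows) at each hour (columns), labelled WT (left) and PkmΔDRE (right), with blue for lower and red for higher. Stars mark the 6 called changes, all labelled WT. The darkest cell labelled PkmΔDRE, Fgg at 96 h, rests on the vehicle library that stood apart in time.

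At 8 h labelled WT, Ttr, Trf, Ahsg and Rbp4 were lower with TCDD, 4 of 10 members. Of the 12392 genes tested, 1690 were called lower and 2950 higher, 37.4% in either direction. The share of members was near that called in either direction and above that called lower, a difference that was not tested. Ttr was at 7284, 7459, 5259.5 and 5148 CPM in vehicle and 3970.1, 3702, 3458 and 3241 CPM with TCDD. The groups did not overlap, and the log2 fold change was -0.68 ± 0.17 (SE, edgeR adjusted p = 0.00672). Rbp4 was at 3181, 3025, 2339.5 and 2232 CPM in vehicle and 1779, 1617, 1092 and 1523 CPM with TCDD, again without overlap, and changed by -0.72 ± 0.18 (SE, edgeR adjusted p = 0.00701). Trf was at 28803, 28306, 25175 and 25731 CPM against 15867, 16390.3, 10249.9 and 17488 CPM, -0.72 ± 0.19 (SE, edgeR adjusted p = 0.00860). Its groups did not overlap, but without TCDD replicate 3 its change of -0.58 (edgeR adjusted p = 0.00956) was just under the fold of 1.5. Ahsg was at 6861, 6615, 3724 and 3462 CPM against 3606, 3539, 1728 and 2407 CPM, with overlap, and changed by -0.75 ± 0.28 (SE, edgeR adjusted p = 0.0421). Left-out libraries gave Ahsg values from -0.91 to -0.58, and the call was lost without TCDD replicate 3 at -0.58 (edgeR adjusted p = 0.116), TCDD replicate 4 at -0.68 (edgeR adjusted p = 0.100), vehicle replicate 1 at -0.59 (edgeR adjusted p = 0.123) or vehicle replicate 2 at -0.61 (edgeR adjusted p = 0.116). The vehicle group fell into a pair of higher and a pair of lower libraries for Ttr, Ahsg and Rbp4.

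The other 6 members stayed within 1.5-fold at 8 h labelled WT. Apoh passed the adjusted p but not the fold, at -0.54 ± 0.14 (SE, edgeR adjusted p = 0.00744), with 1312 to 1677 CPM in vehicle and 903 to 1016 CPM with TCDD. Fgg did so in the other direction, from 1412, 1432, 1424 and 1478 CPM in vehicle to 1691, 1756, 1740.0 and 1749.8 CPM with TCDD, 0.40 ± 0.12 (SE, edgeR adjusted p = 0.0184). Its 2 groups were tight and did not overlap. Alb changed by -0.14 ± 0.17 (SE, edgeR adjusted p = 0.493), Fga by 0.07 ± 0.14 (SE, edgeR adjusted p = 0.691), Fgb by 0.24 ± 0.14 (SE, edgeR adjusted p = 0.179) and Gc by 0.05 ± 0.14 (SE, edgeR adjusted p = 0.800). Labelled PkmΔDRE the 10 values at 8 h lay between -0.18 and -0.01. The share of reads falling on no annotated gene was 7.21 to 15.6% in the WT-labelled TCDD libraries of 8 h against 3.94 to 4.84% in their vehicle libraries. The vehicle and TCDD libraries did not overlap in that share, so as a covariate it could not be separated from the treatment. In a fit with it the 4 members were again called and Apoh joined them, at -0.59 (adjusted p = 0.0242). The summed Kupffer cell markers were at 173.7 to 219 CPM in vehicle and 61.1 to 120.8 CPM with TCDD in these libraries, and the summed hepatocyte markers at 9774 to 13971 and 9218 to 12219.7 CPM. Their part was not tested.

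At 96 h labelled WT, Alb was higher and Ahsg lower with TCDD, 2 of 10 members against 15.1% of all genes, again a share near the background. Alb was at 5556, 5076, 9721 and 9125 CPM in vehicle and 10781, 10787, 9717 and 11398 CPM with TCDD. The lowest TCDD library was level with the highest vehicle library, and the log2 fold change was 0.63 ± 0.19 (SE, edgeR adjusted p = 0.0264). Ahsg was at 1337, 1132, 1816 and 2417 CPM in vehicle and 860.3, 905, 916 and 1254 CPM with TCDD, with overlap, and changed by -0.67 ± 0.21 (SE, edgeR adjusted p = 0.0373). Vehicle replicate 3 of this hour had Cyp1a1 against its label. Without it Alb changed by 0.79 (edgeR adjusted p = 0.00889) and Ahsg by -0.63 (edgeR adjusted p = 0.0710), so that the Ahsg call was lost. Of the 8 fits that left out 1 library, 3 kept the Alb call (log2 0.50 to 0.79) and 3 kept the Ahsg call (log2 -0.83 to -0.46). The Alb call was lost without TCDD replicate 1 at 0.61 (edgeR adjusted p = 0.0732), 2 at 0.63 (edgeR adjusted p = 0.0593) or 4 at 0.58 (edgeR adjusted p = 0.0740), and without vehicle replicate 1 at 0.52 (edgeR adjusted p = 0.0602) or 2 at 0.50 (edgeR adjusted p = 0.0448). The Ahsg call was also lost without TCDD replicate 1 at -0.63 (edgeR adjusted p = 0.102), 2 at -0.63 (edgeR adjusted p = 0.0926) or 3 at -0.63 (edgeR adjusted p = 0.0845), and without vehicle replicate 4 at -0.46 (edgeR adjusted p = 0.0693). With the share of reads on no gene as a covariate, Alb changed by 0.99 (adjusted p = 0.0262) and Ahsg by -0.40 (adjusted p = 0.411). Neither call held with no filter, where Alb was at 0.60 (adjusted p = 0.175) and Ahsg at -0.70 (adjusted p = 0.163), or in 1 fit of all libraries of the label, where they were at 0.58 (adjusted p = 0.372) and -0.72 (adjusted p = 0.442). Trf passed the adjusted p but not the fold, at 0.50 ± 0.10 (SE, edgeR adjusted p = 0.00365), and its groups did not overlap, 10306 to 12204 CPM against 13981 to 16723 CPM. The summed cholangiocyte markers were at 582 to 1286 CPM in vehicle and 349 to 740.3 CPM with TCDD, and the endothelial markers at 69.1 to 79.4 and 41.2 to 58.6 CPM. The part of those cells was not tested.

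**Figure D5:**
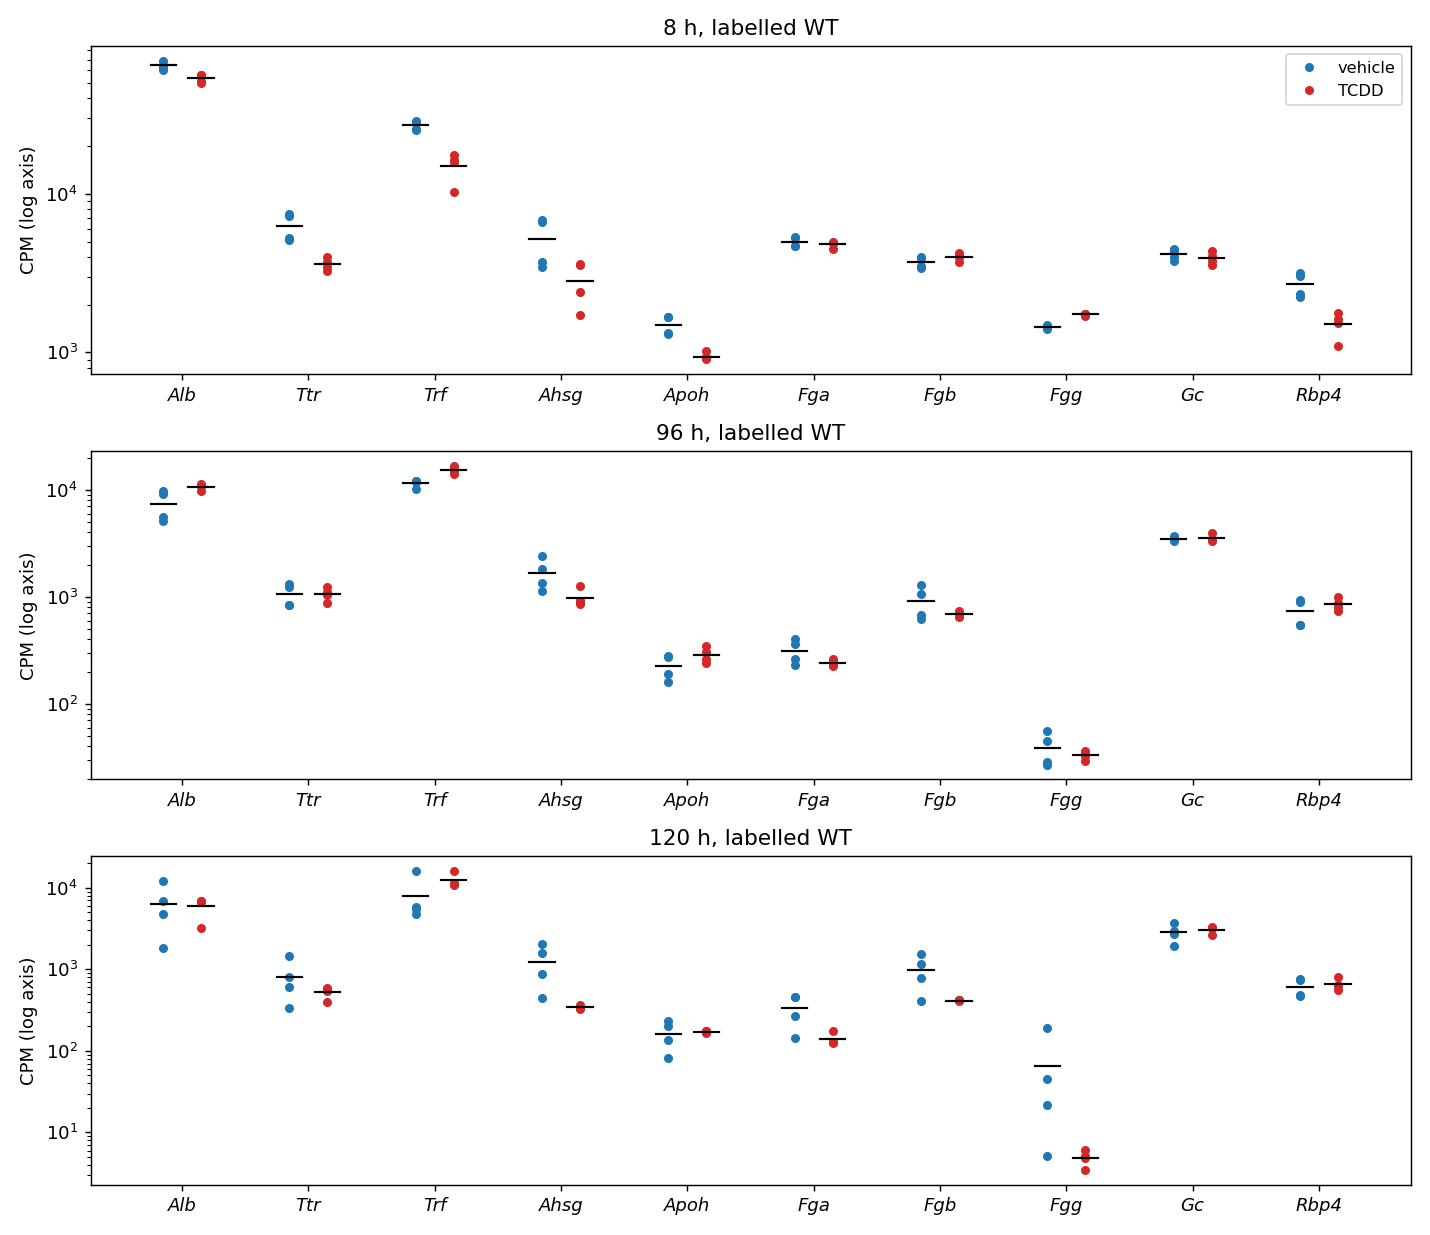
CPM of each member on a log axis in the 4 vehicle and 4 TCDD libraries labelled WT at 8 h (top), 96 h (middle) and 120 h (bottom), with black bars at the group means. Ttr, Trf, Apoh and Rbp4 separate downwards at 8 h. At 120 h the TCDD libraries of Ahsg and of the fibrinogen chains sit together at the low end of a wide vehicle group.

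At 120 h labelled WT, 4 members had large values that were not called, in a comparison where 1.46% of all genes were. Ahsg was at 865, 2065, 448 and 1583 CPM in vehicle and 336, 342, 362 and 329 CPM with TCDD. All TCDD libraries lay below all vehicle libraries, and the log2 fold change was -1.91 ± 0.40 (SE, edgeR adjusted p = 0.0536). Fgg was at 21.97, 188.8, 5.18 and 45.2 CPM against 6.10, 5.10, 3.49 and 4.79 CPM, -3.78 ± 1.01 (SE, edgeR adjusted p = 0.119), with vehicle replicate 3 inside the TCDD range. Fga changed by -1.31 ± 0.33 (SE, edgeR adjusted p = 0.0880) and Fgb by -1.28 ± 0.33 (SE, edgeR adjusted p = 0.0976). Vehicle replicate 3 was the lowest of its group for all 4 genes, and without it all 4 were called, Ahsg at -2.19 (edgeR adjusted p = 0.00384), Fgg at -4.17 (edgeR adjusted p = 0.0297), Fga at -1.56 (edgeR adjusted p = 0.00626) and Fgb at -1.54 (edgeR adjusted p = 0.00626). Leaving out the lowest vehicle library enlarges a fall by itself, so the calls without it add no support. DESeq2 called the same 4 with all libraries, Ahsg with an adjusted p of 1.44e-05. The share of all genes called in these alternative fits is not given here. Trf, at 0.58 ± 0.36 (SE, edgeR adjusted p = 0.474), was called only without vehicle replicate 2, at 1.15 (edgeR adjusted p = 0.00814). In the same libraries the summed cholangiocyte markers were at 538 to 978 CPM in vehicle and 315 to 506 CPM with TCDD, without overlap, the stellate cell or fibroblast markers at 24.1 to 184.9 and 57.7 to 125.05 CPM, the endothelial markers at 32.6 to 82.6 and 79.3 to 90.3 CPM, and the hepatocyte markers at 229 to 2363 and 294 to 377 CPM. The part of those cells was not tested.

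With TCDD, the log2 values of Ahsg were below 0 and those of Trf above 0 at the sampled hours from 48 h on, under both labels, though of these only Ahsg at 96 h labelled WT was called. These signs and those of the fibrinogen chains from 48 h on were the same under RLE scaling and with the members left out of the scaling. At the 5 sampled hours from 24 h on, the Ahsg log2 fold change labelled WT was -0.64, -1.41, -0.50, -0.67 and -1.91 in order. Labelled PkmΔDRE it was -0.04, -1.40, -1.18, -1.22 and -0.65 at those hours, the first of them level with vehicle at means of 1092 CPM in vehicle and 1133 CPM with TCDD. At 48 h, Ahsg was at 289, 1029, 296 and 399 CPM in vehicle and 169.7, 302, 132.6 and 153.9 CPM with TCDD labelled WT (edgeR adjusted p = 1), and at 1749, 385, 685 and 1086 and 679, 233, 278 and 318 CPM labelled PkmΔDRE (edgeR adjusted p = 0.484). The ranges overlapped under both labels. Without the libraries whose Cyp1a1 went against the label, the WT-labelled values at 48, 72 and 96 h were -1.61, -0.84 and -0.63 for Ahsg and 0.38, 0.99 and 0.52 for Trf. Labelled PkmΔDRE at 72 h, the Ahsg change was called only without vehicle replicate 1, at -1.47 (edgeR adjusted p = 0.0449). Trf was above vehicle at 48, 72, 96 and 120 h, by 0.42, 0.75, 0.50 and 0.58 labelled WT and by 0.41, 0.53, 0.36 and 0.80 labelled PkmΔDRE. At 120 h labelled PkmΔDRE its groups did not overlap, 7784, 4812, 3893 and 7229 CPM in vehicle and 12539.6, 9144, 10745 and 8299 CPM with TCDD (0.80 ± 0.25 SE, edgeR adjusted p = 0.324). The fibrinogen chains were below vehicle from 48 h on under both labels, Fgb by -0.76 at 48 h labelled WT and -0.83 labelled PkmΔDRE, and none of these was called. At 96 h labelled WT, Fgg turned from -0.13 to 0.09 without the library whose Cyp1a1 went against its label. At 96 h labelled PkmΔDRE the values rested on the library described next.

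Labelled PkmΔDRE at 96 h the values turned on vehicle replicate 4, the library nearest to the 4 h group. It held Alb at 74196 CPM, where the other 3 libraries were at 8512, 11185 and 10894 CPM, and Fgg at 1943 CPM, where the others were at 110.7, 53.5 and 45.3 CPM. With it the log2 change with TCDD was -3.33 ± 1.27 (SE, edgeR adjusted p = 0.653) for Fgg, -2.26 ± 0.92 (SE, edgeR adjusted p = 0.672) for Fga, -0.67 ± 0.77 (SE, edgeR adjusted p = 0.811) for Alb and -0.89 ± 0.86 (SE, edgeR adjusted p = 0.785) for Apoh. Without it the values were -0.36 ± 0.39 (SE, edgeR adjusted p = 0.833) for Fgg and -0.27 ± 0.20 (SE, edgeR adjusted p = 0.709) for Fga. Alb turned to 0.70 ± 0.29 (SE, edgeR adjusted p = 0.359) and Apoh to 1.00 ± 0.21 (SE, edgeR adjusted p = 0.0344), the latter then called as higher. Trf was then at 1.04 ± 0.26 (SE, edgeR adjusted p = 0.0708) and Ahsg at -0.12 ± 0.31 (SE, edgeR adjusted p = 0.948), so that the lower Ahsg value at this hour also rested on that library. At 4 h, vehicle replicate 4 held Alb at 7964 CPM against 112557, 121193 and 101248 CPM in the others. The Alb change with TCDD was 0.18 ± 0.76 (SE, edgeR adjusted p = 0.970) with it and -0.21 ± 0.17 (SE, edgeR adjusted p = 1) without it.

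Neither the label in vehicle nor the difference of the TCDD response between labels gave a called member. For the label, 0 of 90 tests were called by edgeR and by DESeq2, with 17 at an unadjusted p under 0.05, and the share of all genes called was 0% after 2, 4, 24, 48, 72, 96 and 120 h, 0.0576% after 8 h and 3.68% after 12 h. Outside 96 h the value furthest from 0 was Ahsg at 72 h, with 754, 927, 391 and 1266 CPM labelled WT and 579.6, 2286, 2688 and 2121 CPM labelled PkmΔDRE, with overlap (1.16 ± 0.45 SE, edgeR adjusted p = 0.901). At 24 h the fibrinogen chains and Gc had means labelled PkmΔDRE below those labelled WT, Fgg at 828, 802, 410.1 and 385 CPM labelled WT and 181.6, 341, 363 and 243 CPM labelled PkmΔDRE (-1.02 ± 0.36 SE, edgeR adjusted p = 0.981). Gc at that hour was at 4366, 3789, 3438 and 2765 CPM against 1539.6, 2506, 2549.8 and 1295 CPM (-0.77 ± 0.33 SE, edgeR adjusted p = 0.981). Neither pair of groups overlapped. Fga was -0.95 and Fgb -0.94 at 24 h, with overlap. At 96 h the label differences of 3.89 for Fgg, 2.53 for Fga and 1.92 for Alb became 0.86, 0.49 and 0.50 without the vehicle library that stood apart.

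For the difference of the response, labelled PkmΔDRE minus labelled WT, 0 of 90 tests were called by edgeR and by DESeq2, with 5 at an unadjusted p under 0.05, and the share of all genes called was 0% after 2, 4, 8, 12, 24, 96 and 120 h, 0.00715% after 48 h and 0.00695% after 72 h. At 8 h, where the called falls labelled WT stood, the difference was 0.58 ± 0.27 (SE, edgeR adjusted p = 0.311) for Rbp4, 0.50 ± 0.30 (SE, edgeR adjusted p = 0.375) for Ttr, 0.49 ± 0.36 (SE, edgeR adjusted p = 0.468) for Ahsg and 0.46 ± 0.29 (SE, edgeR adjusted p = 0.405) for Trf. The 8 h falls were therefore not shown to differ between the labels. The value furthest from 0 that did not rest on a library out of its time was Fgg at 120 h, 3.60 ± 1.02 (SE, edgeR adjusted p = 1). At 96 h the Fgg difference was -3.20 with the library that stood apart and -0.27 without it.

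Other genes of the same route were counted from lists. Of 35 other plasma proteins, 31 were lower and 2 higher at 120 h than at 2 h under each label, where 24.5% of all genes were lower labelled WT and 22.7% labelled PkmΔDRE, with a median log2 change of -4.22 labelled WT and -4.59 labelled PkmΔDRE. Serpina6, the corticosteroid-binding globulin, had a mean of 169.3 CPM at 2 h and of 0.183 CPM at 120 h labelled WT, where it was close to the detection limit. Hrg, histidine-rich glycoprotein, went from 1247 to 5.15 CPM (log2 -7.86 ± 0.39 SE, edgeR adjusted p = 3.13e-17). Afp, alpha-fetoprotein, the fetal relative of albumin, rose from 7.43 CPM at 24 h to 299 CPM at 120 h labelled WT (log2 5.37 ± 0.61 SE, edgeR adjusted p = 3.59e-08). With TCDD labelled WT at 8 h, 20 of the 35 were lower and 4 higher. Of the 12392 genes tested, 1690 were called lower and 2950 higher, 37.4% in either direction. Among the listed genes called were the acute-phase protein Saa1 at -1.49 ± 0.44 and Apob, the structural protein of very low density lipoprotein, at 1.28 ± 0.24 (log2 ± SE). At 96 h 2 of the 34 tested were lower and 4 higher, a share near the 15.1% of all genes called, with Afm, an albumin relative that binds vitamin E, at 1.51 ± 0.21.

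Of 13 liver transcription factors known to act on plasma protein genes, 7 were lower and 1 higher at 24 h than at 2 h labelled WT, and 4 lower and 1 higher labelled PkmΔDRE, against 20% and 15.2% of all genes lower. The pair of libraries that stood apart in time entered the spread of the fit labelled PkmΔDRE, so these counts do not compare the labels. Cebpa, which drives Alb among many liver genes, went from 466 to 49.7 CPM labelled WT (log2 -3.22 ± 0.29 SE, edgeR adjusted p = 4.90e-11) and from 571 to 127.2 CPM labelled PkmΔDRE (log2 -2.11 ± 0.54 SE, edgeR adjusted p = 0.00338). At 120 h against 2 h, 6 were lower and 4 higher labelled WT and 4 lower and 5 higher labelled PkmΔDRE, where 24.5% and 22.7% of all genes were lower. Foxa3 was lower under both, at -3.41 ± 0.31 and -2.76 ± 0.63 (log2 ± SE). With TCDD labelled WT at 8 h, 2 of the 13 were higher and 3 lower, a share near the 37.4% of all genes called, with the glucocorticoid receptor gene Nr3c1 at 1.24 ± 0.22 and Cebpb at -1.01 ± 0.19.

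Of 5 genes of interleukin-6 signalling, which acts on the fibrinogen genes, all 5 were lower at 8 h than at 2 h labelled WT and 2 labelled PkmΔDRE, against 16% and 5.5% of all genes. Here too the pair that stood apart in time entered the fit labelled PkmΔDRE, and the counts do not compare the labels. Socs3, the feedback inhibitor that the pathway itself induces, went from 66.6 to 4.00 CPM labelled WT (log2 -4.05 ± 0.43 SE, edgeR adjusted p = 9.26e-09), and Stat3, its transcription factor, from 449 to 134.95 CPM (log2 -1.75 ± 0.13 SE, edgeR adjusted p = 6.33e-12). At 120 h 4 of the 5 were lower than at 2 h under each label. Of 18 genes for entry into the secretory route, 10 were lower at 120 h than at 2 h labelled WT and 9 labelled PkmΔDRE, against 24.5% and 22.7% of all genes, with a median log2 change of -0.78 and -0.64, smaller in size than the member medians. Of 5 receptor genes, 4 were lower and 1 higher labelled WT and 4 lower labelled PkmΔDRE at 120 h against 2 h. Asgr1, a subunit of the receptor that clears desialylated plasma glycoproteins, went from 731 to 7.54 CPM labelled WT.

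Across the 36 group means the 45 pairs of members had a median Pearson r of 0.895 on log2(CPM + 1), from 0.575 for Trf and Ahsg to 0.983 for Alb and Apoh. Among 8019 other genes the patterns most like Alb were those of Afm (r = 0.991), Sec14l4 and Serpina1a (each r = 0.988), Cyp2d10 (r = 0.987) and Cd74 (r = 0.986), and those most like Fgb were Cpn2 and Pck1 (each r = 0.975), Gstz1 (r = 0.971), Bbox1 (r = 0.967) and Habp2 (r = 0.966). These correlations describe means that share a time course and a scaling, with no test. The means include the libraries that stood apart, and the correlations were not repeated without them.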

How the data were processed

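Gene-level counts of the libraries (4 for each of 36 combinations of label, treatment and hour) were analysed. Per the labels and the study's methods, the authors sequenced unstranded 150-base read pairs, checked them with FastQC (the labels and the methods name different versions), trimmed them with Trimmomatic 0.39, aligned them with STAR 2.7 to GRCm39 and deposited raw counts per gene. The 4 lines per file that name no gene, 16.8 to 48.0% of each file's total (median 24.2%), were left out. Totals on genes were 13588848 to 30719161. No column of another sample was present (0 unused).

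Counts were tested with edgeR 4.0.16 in R 4.3.3: TMM scaling, filterByExpr (minimum count 10, total 15), robust quasi-likelihood F tests, Benjamini-Hochberg adjustment over all genes tested, with calls at an adjusted p under 0.05 and at least 1.5-fold. TCDD was compared with vehicle per label and hour (8 libraries), labels in vehicle per hour (8), the difference of responses per hour (16), and hours in vehicle in 1 fit per label (36). A standard error is the log2 fold change over the root of F. Printed CPM were TMM-scaled over all libraries, whereas each fit scaled its own, so a fold may differ slightly from a ratio of CPM, and CPM are not shares of counts. Shares used the unscaled counts. Symbols were found for 52083 of the 55359 identifiers, and exon lengths and gene positions came from GENCODE M21 (GRCm38). The tests were tried on simulated counts first. Alternatives were DESeq2 1.42.0, RLE scaling, members left out of the scaling, no filter, no fold threshold, 1 fit of all libraries of a label, the share of reads on no gene as a covariate, the compared hours alone, each replicate left out, and, added after seeing the data, the 5 libraries that stood apart left out.

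The members, the lists and the tests were chosen with earlier results of these data known. The text names the 10 members in every comparison, for each list the called genes with the largest change, and the 5 genes most like Alb and Fgb. The reads were unstranded, so a gene and an antisense partner cannot be told apart.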

Additional observations from a re-analysis of the deposited data

Results flagged for a closer look

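A library was set apart where its gap to the nearest other library of its group took up more of the group's range than Dixon's critical value for 4 libraries allows. This held in 32 of 360 combinations of member and group, where chance alone would give about 1 in 20. Replicate 4 of vehicle at 96 h labelled PkmΔDRE, the library nearest to the 4 h group, was above its 3 companions for 8 of the 10 members, with Alb at 74196 CPM against 8512 to 11185 CPM, Ttr at 11519 CPM against 1304 to 2032 CPM, Ahsg at 7951 CPM against 685 to 1849 CPM, Apoh at 2280.0 CPM against 158.9 to 262 CPM, Fga at 5469 CPM against 388 to 464 CPM, Fgb at 4709.8 CPM against 1173 to 1477 CPM, Fgg at 1943 CPM against 45.3 to 110.7 CPM and Rbp4 at 3366 CPM against 571 to 900.1 CPM. Its counterpart at 4 h, vehicle replicate 4 labelled PkmΔDRE, had Apoh at 230.4 CPM against 1956 to 2309.6 CPM.

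In TCDD replicate 3 of 120 h labelled WT, 4 members stood off, with Alb at 3209 CPM against 6625 to 6977 CPM, Trf at 15879.6 CPM against 10954 to 11529.7 CPM, Fga at 175.6 CPM against 126.5 to 128.99 CPM and Gc at 2603 CPM against 3183 to 3270.3 CPM. In vehicle replicate 3 of 72 h labelled WT, 3 members stood off, with Alb at 10760.1 CPM against 5192 to 5898 CPM, Fga at 58.6 CPM against 291 to 311 CPM and Fgb at 356 CPM against 881 to 982 CPM. In TCDD replicate 4 of 2 h labelled WT, 3 members stood off, with Trf at 58952 CPM against 22595 to 26727 CPM, Ahsg at 11363 CPM against 6011 to 6699 CPM and Rbp4 at 6427 CPM against 3120.2 to 3616 CPM. The remaining cases were 1 member in 1 library each. Alb was at 111631 CPM in vehicle replicate 3 of 4 h labelled WT, where the others held 96400.0 to 98274 CPM. Ttr was at 5354 CPM in TCDD replicate 2 of 12 h labelled WT, where the others held 2679 to 2868 CPM. Trf was at 15990.1 CPM in vehicle replicate 2 of 120 h labelled WT, where the others held 4811 to 5795 CPM. Ahsg was at 1029 CPM in vehicle replicate 2 of 48 h labelled WT, where the others held 289 to 399 CPM, 1254 CPM in TCDD replicate 4 of 96 h labelled WT, where the others held 860.3 to 916 CPM and 869 CPM in TCDD replicate 2 of 24 h labelled PkmΔDRE, where the others held 1203 to 1256 CPM. Apoh was at 1418 CPM in TCDD replicate 1 of 4 h labelled WT, where the others held 1745 to 1807 CPM and 100.2 CPM in TCDD replicate 4 of 72 h labelled WT, where the others held 167.3 to 179.5 CPM. Fgb was at 12335 CPM in vehicle replicate 2 of 2 h labelled WT, where the others held 9563 to 9959 CPM and 2397 CPM in vehicle replicate 2 of 12 h labelled WT, where the others held 1636 to 1746 CPM. Gc was at 7385 CPM in vehicle replicate 2 of 2 h labelled PkmΔDRE, where the others held 9784 to 10069 CPM and 4295 CPM in vehicle replicate 3 of 72 h labelled PkmΔDRE, where the others held 2878 to 2960.5 CPM. Rbp4 was at 2731 CPM in TCDD replicate 1 of 8 h labelled PkmΔDRE, where the others held 1703 to 1846 CPM.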

How the results depend on the processing

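No paired analysis was possible because the labels give no replicate number, isolation or batch that links libraries of different groups. The number of the 90 TCDD tests called labelled WT was 6. It was 10 with DESeq2, which added the 4 members of 120 h, and 4 to 10 when each library was left out. RLE scaling, members out of the scaling and the share of reads on no gene as a covariate each gave 6, no filter 4, 1 fit of all libraries 7, no fold threshold 9 and the libraries that stood apart left out 5. Labelled PkmΔDRE the number was 0, and it was 2 in 1 fit of all libraries, 2 with no filter, 1 without the libraries that stood apart, 0 to 1 with each library left out and 0 in the other alternatives. The difference between responses and the label in vehicle gave 0 called members in every alternative run. The number of falls over time labelled WT was 32 of 40, 31 to 33 with each library left out and 31 to 34 otherwise. Labelled PkmΔDRE it was 25 of 40, 22 to 25 with each library left out, 22 with no filter, 33 without the libraries that stood apart and 34 with the compared hours alone, and the cause was not tested beyond leaving those libraries out. The shares of all genes called in these alternatives are not given here. Single falls from 24 to 120 h labelled PkmΔDRE were lost without vehicle replicate 3 or 4 of 120 h for Fgg (log2 -3.22 to -2.72, edgeR adjusted p up to 0.0614), and without replicate 2 or 3 of 120 h or replicate 1 or 4 of 24 h for Ttr (log2 -2.06 to -1.48, edgeR adjusted p up to 0.0912). No change called with all libraries turned its direction in an alternative run. Ranked by Spearman's rho, 3 of the 5 genes most like Alb and 3 of the 5 most like Fgb were shared with the ranking by Pearson's r. Depth limited Fgg most, whose mean of 4.87 CPM with TCDD at 120 h labelled WT was the lowest of any member and group.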
